A study of Mus musculus with 6 samples.

Results

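The genes of MHC class II presentation were examined in activated mouse B cells with and without hnRNPL, an RNA-binding protein that controls splicing. The 10 genes, chosen by name from the 55421 genes of the deposited table, were *H2-Aa*, *H2-Ab1*, *H2-Eb1*, *H2-DMa*, *H2-DMb1*, *H2-DMb2*, *H2-Oa*, *H2-Ob*, *Cd74* and *Ciita*. All 10 were tested, among the 17640 genes whose mean over the libraries reached 10 normalized counts. None of the 10 passed the thresholds for a changed gene. *H2-Aa*, which encodes the alpha chain of the class II molecule I-A, had the lowest adjusted p, with a mean in hnRNPL-deficient cells at 79.4% of that in WT cells. *H2-Oa*, the alpha chain of the inhibitor DO, had the lowest mean relative to WT, at 73.5%, and did not pass the test.

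MHC class II molecules are pairs of an alpha and a beta chain that show peptides from endosomes to CD4+ T cells. A new pair is held by the invariant chain, the product of *Cd74*, which fills the groove and guides the pair to endosomes. There the invariant chain is cut down to a short fragment, which the DM pair (*H2-DMa* with *H2-DMb1* or *H2-DMb2*) exchanges for peptide. The DO pair (*H2-Oa* with *H2-Ob*) inhibits DM and is found mostly in B cells. *Ciita* encodes the coactivator that switches on the genes of this group through proteins bound to their promoters. In resting B cells these genes are active, and IL-4 raises surface class II.

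All mice carried the *CD21-cre* transgene and the *Rosa mT/mG* reporter, in which Cre turns cells from tdTomato to GFP, and GFP+ splenic B cells were taken from each. The 3 WT mice had intact *Hnrnpl*, and the 3 hnRNPL-deficient mice, labelled hnRNPL_KO, had floxed *Hnrnpl* alleles (F/F). *CD21-cre* is active mostly in mature B cells, so that GFP marks cells in which Cre had acted, not the loss of *Hnrnpl* itself. The mice were of both sexes, on the C57BL6/J background and older than 6 weeks. Resting B cells were activated for 24 h with LPS at 5 µg/ml and IL-4 at 5 ng/ml, sorted, and sequenced as polyA RNA, 1 library per mouse. The unit throughout is the normalized count, a read count per gene divided by a size factor for the library. Libraries held between 40395186 and 75180749 reads on genes. *Hnrnpl* itself had 24371, 25579.7 and 24174 normalized counts in WT libraries, against 2178, 1519 and 1297 after its deletion. Markers that define B cells were present in every library. Of the 11 markers of macrophages and monocytes, another cell type with class II, 8 stayed under 10 normalized counts in all 6 libraries. These included *C1qa*, *C1qb* and *C1qc*, which were at 0. The summed level of that list was 609 to 741 in WT and 1664 to 1807 in hnRNPL-deficient libraries, of which *Adgre1* made up 236 to 315 and 1217 to 1369. Of the 10 dendritic cell markers, 5 stayed under 10, and *Itgax*, *Clec9a* and *Siglech* were at 0. Their sum was 5723 to 8614 in WT and 8495 to 9885 in hnRNPL-deficient libraries. Most of that sum was *Ccl22*, at 3592 to 6422 in WT and 4882 to 6423 in hnRNPL-deficient libraries, which overlapped. Within that list *Ccr7*, from 1453 ± 107 to 2818 ± 93.2 (SD, n = 3 mice each), and *Xcr1*, from 8.94 ± 0.724 to 24.4 ± 2.89, passed both thresholds as higher, with adjusted p of 0.00123 and 0.037 from limma. *Flt3* (mean 449 in WT against 404) and *Zbtb46* (265 against 236) were lower on average. Their log2 fold changes were -0.14 and -0.17, the groups overlapped, and neither passed the test. The part of other cells in the class II values was not tested.

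Of the 10 genes, 8 lie together in the class II region of chromosome 17, between 34092340 and 34316674 in GRCm38, a stretch of 224 kb. In chromosome order these are *H2-Oa*, *H2-DMa*, *H2-DMb2*, *H2-DMb1*, *H2-Ob*, *H2-Ab1*, *H2-Aa* and *H2-Eb1*. *Ciita* lies on chromosome 16, from 10480059 to 10528418, and *Cd74* is apart from both. A promoter from 250 bases before to 50 bases after the start site was given by RefSeq (GRCm38.p6) for 7 of the 10 genes. *H2-Ab1*, *Cd74* and *Ciita* had no entry.

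Class II promoters share a block of boxes, among them the X box, bound by the RFX complex, and the Y box, bound by NF-Y. The letters TGATTGG, which contain the reversed CCAAT core of the Y box, were found in 6 of the 7 genes with an entry, and in each of those 6 an AAC triplet, as at the start of an X box, began 26 to 29 bases before it. These letters were chosen after the promoters had been read. Over all 32851 promoters given, searched on both strands, 7.82% held TGATTGG and 0.46% held the AAC and TGATTGG at that spacing. The stretch is shown for the 6 genes because it holds letters like those of the X and Y boxes, which the promoter-bound factors described below bind. Binding at these stretches was not tested. Capitals mark the AAC and the TGATTGG, and each line reads 5′ to 3′ in the direction of the gene.
*H2-Oa*: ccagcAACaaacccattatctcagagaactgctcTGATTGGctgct
*H2-DMb2*: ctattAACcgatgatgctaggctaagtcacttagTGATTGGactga
*H2-DMb1*: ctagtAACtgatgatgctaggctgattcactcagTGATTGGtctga
*H2-Ob*: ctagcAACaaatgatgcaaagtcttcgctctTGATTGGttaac
*H2-Aa*: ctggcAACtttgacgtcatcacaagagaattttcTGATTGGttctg
*H2-Eb1*: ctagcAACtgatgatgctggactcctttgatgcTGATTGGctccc
In GRCm38.p6 the lines cover chr17:34092300-34092345 for *H2-Oa*, chr17:34145123-34145168 for *H2-DMb2*, chr17:34153094-34153139 for *H2-DMb1*, chr17:34238815-34238857 for *H2-Ob*, chr17:34287862-34287907 for *H2-Aa* and chr17:34305773-34305817 for *H2-Eb1*. *H2-Aa* is read from the minus strand and the other 5 from the plus strand. The 2 entries for *H2-DMa* did not hold these letters, which says only that they are not in those windows. A stricter pair of motifs, GNAACNGNT followed 25 to 45 bases later by ATTGG, was in 2 of the 7 genes, *H2-Eb1* and *H2-DMb1*, and in 0.149% of all promoters. ATTGG is part of TGATTGG, so the searches overlap.

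Levels were compared between genes per kb of exon, using the summed length of all annotated exons of each gene. On this scale *Cd74* stood highest in WT cells, at 148906 ± 12086 normalized counts per kb (SD, n = 3 mice). *H2-Aa* was next, with a level of 28256 ± 451 per kb. *H2-DMb2*, at 20443 ± 3811 per kb, and *H2-Ab1*, at 19584 ± 1108 per kb, followed, and the WT ranges of these neighbours overlapped. On this scale the RNA of *H2-DMb2*, a DM beta chain, was thus about as abundant as that of *H2-Ab1*, the I-A beta chain. The scale counts all annotated exons, not the length of the RNA made. Before scaling, the WT means were 35713 and 50291 normalized counts.

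*H2-Eb1*, which encodes the beta chain of the second class II molecule I-E, had a level of 13320.0 ± 5117 per kb in WT. *H2-DMa*, at 4138 ± 392 per kb, and *H2-DMb1*, at 4069.7 ± 419 per kb, overlapped in WT, although not in hnRNPL-deficient cells. *Ciita*, the coactivator, was at 1503 ± 277 per kb. The DO genes were lowest, *H2-Oa* at 875 ± 162 per kb and *H2-Ob* at 681 ± 160.1 per kb, with overlapping ranges. In WT the highest and lowest levels per kb differed 219-fold. In hnRNPL-deficient cells the order by mean was the same except that *H2-Ob*, at 729.7 ± 143 per kb, stood above *H2-Oa*, at 643 ± 163 per kb, again with overlapping ranges. The plot of normalized counts by library is not scaled to length.

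**Figure D1:**
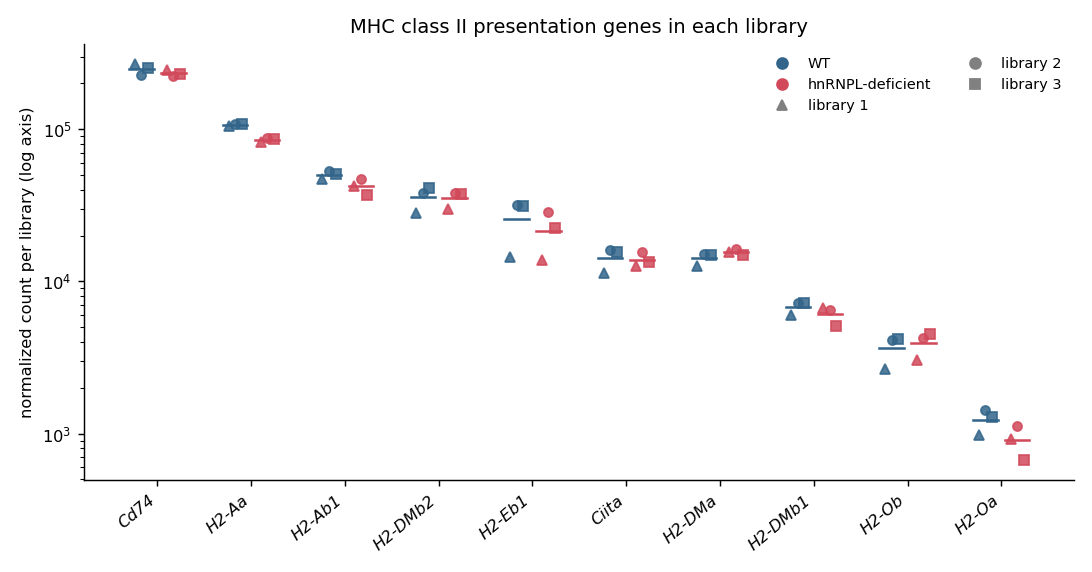
Normalized counts of the 10 class II genes in each of the 6 libraries, on a log axis, with the mean of each group as a line. Triangles, circles and squares stand for libraries 1, 2 and 3. The red points lie below all blue points for *H2-Aa* and *H2-Ab1*, and the triangles of both groups lie low for *H2-Eb1*.

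Summed over the 10 genes, normalized counts came to 497908, 502715 and 528041 in WT and to 451162, 469566 and 452376 in hnRNPL-deficient libraries. The sum was therefore lower in every hnRNPL-deficient library than in any WT library. As a share of all normalized counts in a library it was 0.80%, 0.843% and 0.918% in WT and 0.763%, 0.808% and 0.817% in hnRNPL-deficient cells, and on that scale the groups overlapped. *Cd74* alone made up between 0.383% and 0.439% of a library. In these bulk libraries, fewer cells of a type and less RNA per cell cannot be told apart.

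Library 1 of each group stood apart in the MHC before any comparison of the groups. *H2-Eb1* had 14409 normalized counts in WT library 1, against 31802 and 31471 in WT libraries 2 and 3. In the hnRNPL-deficient group it had 13892 in library 1, against 28470.0 and 22422 in libraries 2 and 3. In library 1 it was thus at 0.455 of the mean of the other WT libraries and at 0.546 of the mean of the other hnRNPL-deficient libraries. The neighbouring *H2-Ea-ps* (chromosome 17, 34341959 to 34344645), annotated as a polymorphic pseudogene, had the reverse pattern. It had 574 normalized counts in WT library 1 and 816 in hnRNPL-deficient library 1, but between 0.765 and 8.22 in the other 4 libraries. This gene stands for the alpha chain of I-E, which mice of the C57BL/6 strain are known not to make. *H2-Ab1*, which lies near both, did not show such a gap, with library 1 at 0.91 of the other WT libraries and 1.02 of the other hnRNPL-deficient libraries. Library 1 was also lower in both groups for *H2-Ob* (0.642 and 0.701 of the others) and *H2-DMb2* (0.716 and 0.789), and higher for the class I pseudogene *H2-K2* (2.54 and 2.04). Outside the MHC, *Ciita* on chromosome 16 was lower in library 1 of both groups as well (0.712 and 0.868).

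Across all genes tested, 9 were at least 2-fold higher in both number 1 libraries than in each of the other 4, on the log2(normalized count + 1) scale. Of these, 7 lay on chromosome 17 between 34341959 and 36168537, a span with 95 genes tested. They were *H2-Ea-ps*, *H2-Q1*, *H2-Q2*, *H2-T-ps*, *BC023719*, *Gm10499* and *Gm8909*, which include class I genes and pseudogenes of the MHC. *BC023719*, an antisense gene, had 259 and 386 normalized counts in the number 1 libraries and at most 6.85 in the others. *H2-Q2*, a class I gene, had 146 and 94.7 in the number 1 libraries and at most 8.22 in the others. A further 32 genes were at least 2-fold lower in both number 1 libraries, of which 0 lay on chromosome 17. They were spread over other chromosomes and included noncoding entries, such as *Gm23482* (a snoRNA), *Mir5120* (a miRNA) and *Lncpint* (a lincRNA). The split of library 1 was thus not confined to the MHC. These genes were picked after their values were seen, and similar MHC genes could share reads. Each group held 1 such library, so the split does not follow genotype, and the part of the mice's MHC alleles in it was not tested.

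**Figure D2:**
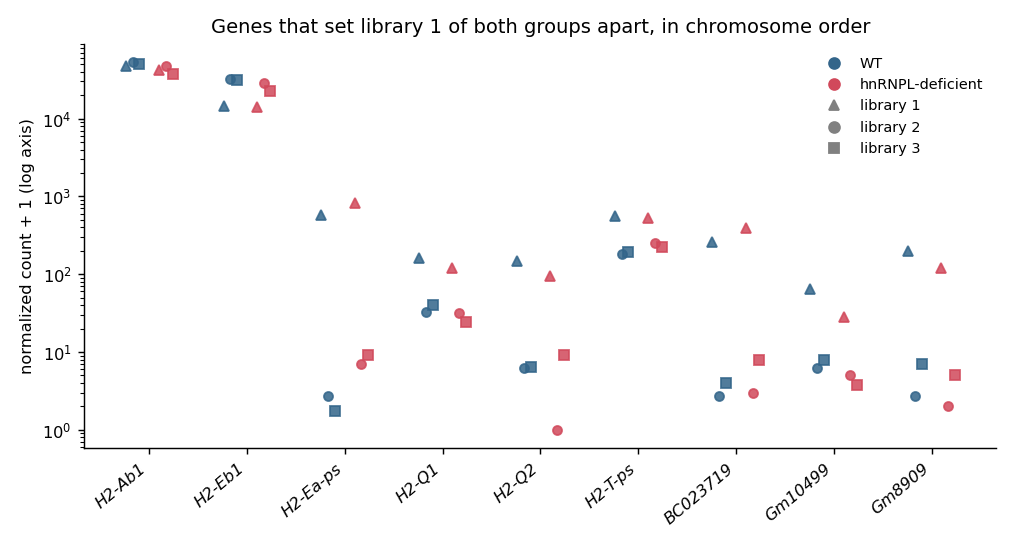
Normalized counts plus 1, on a log axis, of *H2-Ab1*, *H2-Eb1* and the 7 genes of chromosome 17 that were at least 2-fold higher in library 1 of both groups, in chromosome order. Triangles (library 1) lie above the other points for the 7 genes and below them for *H2-Eb1*, in WT and hnRNPL-deficient cells alike.

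The effect of hnRNPL loss on the classical chains was then compared. *H2-Aa*, the I-A alpha chain, had 105428, 107752 and 108767 normalized counts in WT libraries 1 to 3 and 82626, 87432 and 85712 in hnRNPL-deficient libraries 1 to 3. All 3 hnRNPL-deficient values were below all WT values, and the gap between the groups was wider than the range within either. The log2 fold change was -0.33 (SE 0.101, 95% interval -0.56 to -0.10), with an adjusted p of 0.07 from limma. This passed the threshold of 0.1 for the adjusted p but not the minimum of 1.5-fold, so *H2-Aa* was not counted as changed. At an adjusted p under 0.1 and whatever the fold, 7.97% of the genes tested were lower in hnRNPL-deficient cells. The adjusted p rose above 0.1 when 1 library was left out, namely WT library 2 (0.212) or 3 (0.204) or hnRNPL-deficient library 1 (0.165) or 2 (0.152), while the log2 fold change stayed between -0.35 and -0.31. With quantile normalization, the log2 fold change of *H2-Aa* was -0.07 and its adjusted p 0.719 from limma.

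*H2-Ab1*, the I-A beta chain, had 47177, 52755 and 50943 normalized counts in WT and 42660.1, 47005 and 36837 in hnRNPL-deficient libraries. The groups did not overlap here either, but the highest hnRNPL-deficient value lay close to the lowest WT value. Its log2 fold change was -0.26 (SE 0.118, 95% interval -0.53 to 0.01, adjusted p = 0.198 from limma). With quantile normalization, it was -0.13 (adjusted p = 0.465 from limma). All hnRNPL-deficient values lay below all WT values for these 2 of the 10 genes, a pattern shown by 16.3% of all genes tested.

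*H2-Eb1*, the I-E beta chain, did not separate the groups. Its mean was 25894 ± 9948 in WT, against 21595 ± 7324 with hnRNPL lost (SD, n = 3 mice each), and library 1 was the lowest of each group. The log2 fold change was -0.23 (SE 0.343, 95% interval -1.02 to 0.55, adjusted p = 0.695 from limma). Without the number 1 libraries of both groups it was -0.32 (adjusted p = 0.222 from limma), and without hnRNPL-deficient library 1 alone it was 0.054. The interval with all 6 libraries allows anything from a level of 0.495 to one of 1.46 times WT.

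For *Cd74*, the invariant chain, WT libraries 1, 2 and 3 had 268977, 228610.4 and 252450.4 normalized counts and hnRNPL-deficient libraries 243193, 224609.7 and 231095. The ranges overlapped. The log2 fold change was -0.10 (SE 0.128, 95% interval -0.39 to 0.19, adjusted p = 0.651 from limma), so that a change past 1.5-fold in either direction was outside the interval.

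*Ciita*, the coactivator of the group, had 11281, 15996 and 15709 normalized counts in WT and 12628, 15627 and 13454 in hnRNPL-deficient libraries. The hnRNPL-deficient values fell within the WT range. Its log2 fold change was -0.03 (SE 0.152, 95% interval -0.38 to 0.32, adjusted p = 0.915 from limma). The sign changed to 0.024 with scaling to equal totals and to 0.11 with quantile normalization, so no direction is given for it.

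The peptide exchange genes differed among themselves in the sign of their means. *H2-DMa*, the DM alpha chain, had 12709.9, 15166 and 14922 normalized counts in WT and 15572, 16395 and 14930.4 in hnRNPL-deficient libraries. The groups overlapped, with a log2 fold change of 0.14 (SE 0.103, 95% interval -0.10 to 0.37, adjusted p = 0.434 from limma). Without WT library 1 it was 0.054. *H2-DMb1*, a DM beta chain, had 6028, 7258 and 7238 in WT and 6677, 6473 and 5086 in hnRNPL-deficient libraries, with only hnRNPL-deficient library 3 outside the WT range. Its log2 fold change was -0.18 (SE 0.133, adjusted p = 0.432 from limma), and without that library it was -0.052.

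*H2-DMb2*, the other DM beta chain, had nearly equal means, 35713 ± 6657 in WT against 35272 ± 4629.6 in cells lacking hnRNPL (SD, n = 3 mice each). The log2 fold change was -0.01 (SE 0.162, 95% interval -0.38 to 0.36, adjusted p = 0.978 from limma), and its sign turned with scaling to equal totals (0.046) and quantile normalization (0.13). The 2 beta genes are close copies. Of the stretches of 100 bases in their transcripts, the length of a read, 179 were identical between them, which is 11.3% of those of *H2-DMb1* and 10.3% of those of *H2-DMb2*. Reads that lie wholly in such stretches may not be assignable to either gene, so their separate values are uncertain to that extent. The other 8 genes shared none with any other annotated gene. Genes that overlap *H2-DMa* (*CR974462.3*) and *Cd74* (*Mir5107*) on the same strand could share a few of their reads.

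The DO genes, inhibitors of DM, were the least abundant of the group. *H2-Oa*, the DO alpha chain, had 978, 1423 and 1290.1 normalized counts in WT and 923, 1123 and 666 in hnRNPL-deficient libraries. It had the largest estimated difference of the 10 genes, a log2 fold change of -0.46 (SE 0.213, 95% interval -0.95 to 0.03, adjusted p = 0.205 from limma), but WT library 1 lay below hnRNPL-deficient library 2. Without hnRNPL-deficient library 3, the lowest, it was -0.26. DESeq2 on the reads of 5 libraries, without hnRNPL-deficient library 2, gave -0.62 with an adjusted p of 0.0593, past both thresholds, whereas edgeR on the same reads gave -0.60 with an adjusted p of 0.127. *H2-Ob*, the DO beta chain, had 2668, 4115 and 4201 normalized counts in WT and 3055, 4219 and 4503 in hnRNPL-deficient libraries. Library 1 was again the lowest of each group, and the log2 fold change was 0.11 (SE 0.206, 95% interval -0.36 to 0.58, adjusted p = 0.764 from limma).

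Of the 10 genes, 8 had a lower and 2 a higher mean log2 value in hnRNPL-deficient cells, and 0 passed both thresholds of the limma test. One, *H2-Aa*, had an unadjusted p under 0.05. Of the 17640 genes tested, 9304 had a lower and 8336 a higher mean log2 value, and 4830 had an unadjusted p under 0.05 from limma. Over all genes tested, 11.4% passed both thresholds. The median log2 fold change of the 10 genes was -0.14, against -0.03 for all genes tested. For 8 of the 10 genes the whole 95% interval lay within 1.5-fold of no change, the others being *H2-Eb1* and *H2-Oa*.

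**Figure D3:**
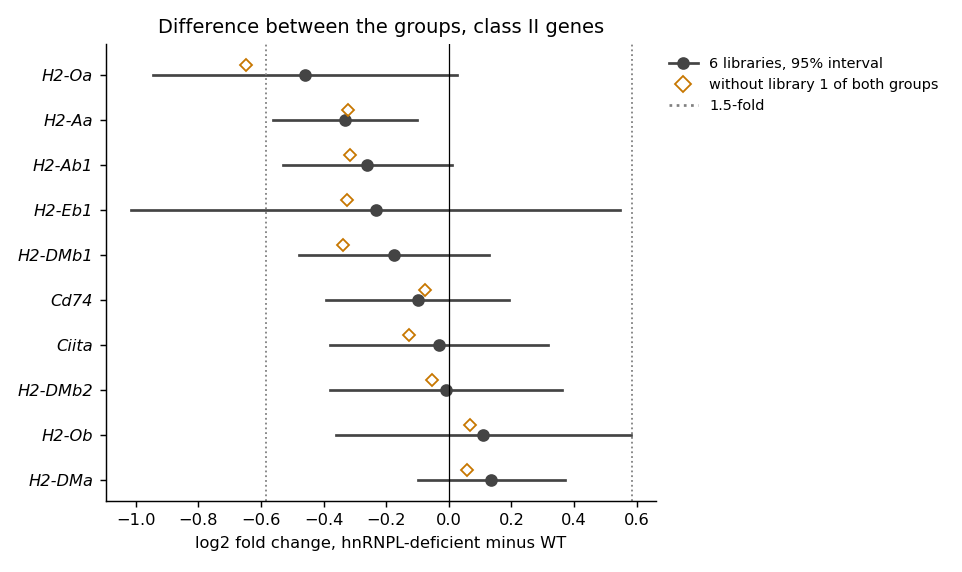
Log2 fold change (hnRNPL-deficient minus WT) of each class II gene with its 95% interval from limma, and, as open diamonds, the value without library 1 of both groups. Dotted lines mark 1.5-fold. The interval of *H2-Aa* alone, -0.56 to -0.10, excludes 0, and that of *H2-Eb1* is the widest.

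Partner chains and regulators were compared as ratios within each library, which removes the scaling of the library. The test was a two-sided exact permutation test on log2 ratios over the 6 libraries, in which 3 mice against 3 cannot give a p below 0.1, and 8 ratios were tested. For 2 of the 8 ratios the groups did not overlap. The ratio of *H2-DMa* to *H2-Ab1*, the DM alpha chain against the I-A beta chain, was 0.269, 0.287 and 0.293 in WT and 0.365, 0.349 and 0.405 in hnRNPL-deficient libraries. Every hnRNPL-deficient value was above every WT value, and the log2 ratio differed by 0.40 (exact permutation p = 0.1, adjusted over the 8 ratios 0.4). The ratio of *H2-Oa* to *H2-DMa*, the DO alpha against the DM alpha chain, was 0.077, 0.0938 and 0.0865 in WT and 0.0593, 0.0685 and 0.0446 in hnRNPL-deficient libraries. All hnRNPL-deficient values were below the WT values, and the log2 ratio differed by -0.60 (exact permutation p = 0.1, adjusted 0.4). Both ratios use *H2-DMa*, so they are not independent. With single libraries left out, the first difference stayed between 0.33 and 0.44 and the second between -0.73 and -0.42.

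The other 6 ratios overlapped between the groups. *H2-Aa* to *H2-Ab1*, the 2 chains of I-A, was 2.14 ± 0.0961 in WT and 2.04 ± 0.25 in hnRNPL-deficient cells (exact permutation p = 0.5, n = 3 mice each). *Ciita* to *H2-Ab1* was 0.284 ± 0.0386 and 0.331 ± 0.0346 (exact permutation p = 0.3). *Cd74* to *H2-Ab1*, the invariant chain against the beta chain that it holds, was 5.00 ± 0.685 and 5.58 ± 0.754 (exact permutation p = 0.5). *H2-Ob* to both DM beta genes, 0.0854 ± 0.00686 and 0.0944 ± 0.0109, had an exact permutation p of 0.4. *H2-DMb2* to *H2-DMb1*, 5.19 ± 0.492 and 5.93 ± 1.46, had one of 0.6.

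The ratio of *H2-Eb1* to *H2-Ab1* followed the library number, not the genotype. It was 0.305 in WT library 1 and 0.326 in hnRNPL-deficient library 1. In libraries 2 and 3 it was 0.603 and 0.618 in WT and 0.606 and 0.609 in hnRNPL-deficient cells. The 4 values from those libraries thus lay within a narrow range, with the hnRNPL-deficient values between the WT values. The difference between genotypes over all 6 libraries was 0.03 on the log2 scale (exact permutation p = 0.8), and -0.0073 without the number 1 libraries.

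**Figure D4:**
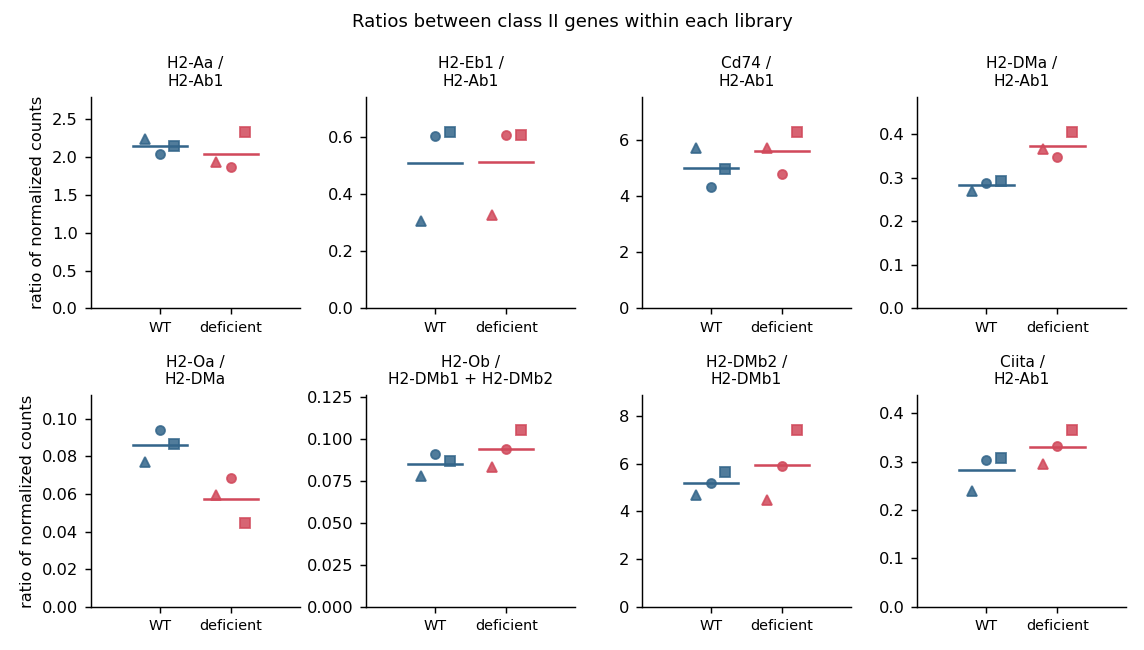
Ratios of normalized counts between pairs of class II genes in each library, with group means as lines and axes from 0. Triangles are library 1. WT and hnRNPL-deficient points are apart for *H2-DMa* to *H2-Ab1* (0.283 against 0.373 on average) and *H2-Oa* to *H2-DMa* (0.0858 against 0.0575), and the triangles lie low for *H2-Eb1* to *H2-Ab1*.

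How alike the genes were across libraries was measured as the root mean square difference between log2 profiles, each centred on its own mean over the 6 libraries, against 17639 other genes. None of the 10 had another of the group as its nearest gene. The closest pair was *Ciita* and *H2-DMb2*, at 0.0854, where *Ciita* ranked 31 among all genes in nearness to *H2-DMb2*. *H2-DMb2* was also the nearest of the group to *H2-Ob*, at rank 41. *H2-DMb1* and *H2-Ab1* were nearest to each other within the group, at 0.0869. *Cd74*, whose values hardly varied, had its nearest group gene, *H2-Aa*, only at rank 3042. The nearest genes overall were *Katna1* for *H2-Aa*, *Supt6* for *H2-Ab1*, *Nprl2* for *H2-DMa*, *Gna15* for *H2-Oa*, *Slc9a8* for *H2-Ob*, *Hectd4* for *H2-DMb2* and *Pank4* for *Ciita*. With 6 libraries and so many genes, near profiles are to be found for any gene, and these are given as a description.

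The other genes of the pathway were drawn from 6 lists with 47 genes in the table, of which 45 were tested. Among these, 3 passed both thresholds as higher (6.67%, against 7.28% of all genes tested) and 2 as lower (4.44%, against 4.08%), so the lists as a whole held about as many changed genes as the transcriptome. Their median log2 fold change was -0.07.

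The promoter factors are the proteins that sit on the X and Y boxes and that CIITA joins. Of 8 tested, 1 passed as higher and 0 as lower. *Rfxank*, a subunit of the RFX complex, had 294, 490.2 and 416 normalized counts in WT and 715, 829 and 678 in hnRNPL-deficient libraries. All hnRNPL-deficient values were above the WT values, with a log2 fold change of 0.91 (SE 0.201, adjusted p = 0.0237 from limma). Leaving out single libraries gave values from 0.71 to 1.08. The other subunits of the complex did not pass the test. *Rfx5*, which binds the X box, had 3519 ± 119 normalized counts in WT against 3132 ± 99.9 (adjusted p = 0.267 from limma), and *Rfxap* had 503 ± 25.8 and 471 ± 3.99 (adjusted p = 0.672 from limma; SD, n = 3 mice each). *Creb1* and *Atf1*, factors of the box next to the X box, had log2 fold changes of -0.13 and -0.20, and *Nfya*, a subunit of NF-Y, had -0.06, none of them past the test.

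Of 12 regulators of *Ciita*, 1 passed as higher and 1 as lower. *Zbtb32*, a repressor of *Ciita* known from B cells and plasma cells, had 2315, 2462 and 1783 normalized counts in WT and 1105, 1541 and 979 in hnRNPL-deficient libraries. The groups did not overlap, and the log2 fold change was -0.87 (SE 0.191, adjusted p = 0.0236 from limma). Without the number 1 libraries of both groups it was -0.77, with an adjusted p of 0.143 from limma. *Bcl6*, which encodes a transcriptional repressor, had 1447, 1675 and 1801 in WT and 2423, 2732 and 2515 in hnRNPL-deficient libraries. Its log2 fold change was 0.64 (SE 0.116, adjusted p = 0.0111 from limma), and without WT library 1 it was 0.56, under 1.5-fold. *Pax5*, *Il4ra* and *Irf8*, the most abundant regulators that did not pass, had log2 fold changes of 0.01, -0.17 and 0.14. The sign for *Pax5* turned when single libraries were left out. These counts are per gene and do not show isoforms, and the study names *Pax5* and *Bcl6* among genes with altered splicing. *Ciita* itself, as given above, differed by -0.03.

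The endosomal enzymes cut the invariant chain and antigens into peptides. Of 10 tested, 1 passed as lower and 0 as higher. *Ctsz*, which encodes the exopeptidase cathepsin Z, had 12046, 13291 and 11819.7 normalized counts in WT and 8369, 8887 and 7063 in hnRNPL-deficient libraries. All hnRNPL-deficient values lay below the WT values, with a log2 fold change of -0.62 (SE 0.112, adjusted p = 0.0115 from limma). It dropped under 1.5-fold with scaling to equal totals (-0.56), with quantile normalization (-0.49) and when either WT library 2 (-0.56) or hnRNPL-deficient library 3 (-0.52) was left out. *Ctss*, cathepsin S, the main enzyme for the last cut of the invariant chain in B cells, had 17768 ± 2091 in WT against 17629 ± 1962 (adjusted p = 0.965 from limma; SD, n = 3 mice each). *Ifi30*, the lysosomal thiol reductase, had a log2 fold change of -0.07, and *Sppl2a*, the protease that removes the membrane stub of the invariant chain, had -0.31 (adjusted p = 0.14 from limma). The signs for *Ctss* and *Ifi30* turned with quantile normalization. *Ctsh*, cathepsin H, named after its values were seen, had 6008 to 6730.2 in WT but 4299, 1617 and 6631 in hnRNPL-deficient libraries, a spread that left its log2 fold change of -0.84 at an SE of 0.422 (adjusted p = 0.241 from limma).

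At the cell surface, the ubiquitin ligases MARCH1 and MARCH8 remove class II, and CD83 opposes MARCH1. Of these 3 genes, none passed both thresholds. *Cd83* had 25783, 25689 and 24279 normalized counts in WT and 37778, 34884 and 36097 in hnRNPL-deficient libraries. The groups were far apart relative to their spread, with a log2 fold change of 0.52 (SE 0.091, adjusted p = 0.00961 from limma), but the change was under 1.5-fold. It passed 1.5-fold with quantile normalization (0.65) and with edgeR on the reads of 5 libraries (0.59). *March1* had 3082 ± 374 and 2645 ± 459 (adjusted p = 0.351 from limma) and *March8*, which was scarce, 54.4 ± 6.28 and 78.0 ± 11.6 (adjusted p = 0.227 from limma; SD, n = 3 mice each).

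Besides its role as a chaperone, CD74 is a surface receptor for the cytokine MIF, which signals with CD44 and the chemokine receptor CXCR4. *Cxcr4* had 487, 436 and 463 normalized counts in WT and 735, 780.5 and 840.2 in hnRNPL-deficient libraries. It was higher in every hnRNPL-deficient library, with a log2 fold change of 0.76 (SE 0.128, adjusted p = 0.00819 from limma). The ligand *Mif* had 14178 ± 566 in WT against 12126 ± 1550.0, without overlap (adjusted p = 0.224 from limma; SD, n = 3 mice each), and *Cd44* had a log2 fold change of -0.14 (adjusted p = 0.437 from limma). With *Cd74* at -0.10, 1 gene of this small group passed the test.

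Other genes of the class II region were compared to see whether neighbours of the 8 linked genes differed. Of 9 tested, 0 passed in either direction, and their median log2 fold change was -0.26. *Brd2*, a bromodomain gene that overlaps *H2-DMa* on the opposite strand, had a log2 fold change of 0.00. *Tap1*, a subunit of the class I peptide transporter, had -0.18, and *Psmb8*, a subunit of the immunoproteasome, had -0.33 (adjusted p = 0.191 from limma). *H2-Eb2*, a close relative of *H2-Eb1*, had 2818 ± 106 normalized counts in WT against 2698 ± 241 (SD, n = 3 mice each), and its library 1 values did not stand out in either group.

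**Figure D5:**
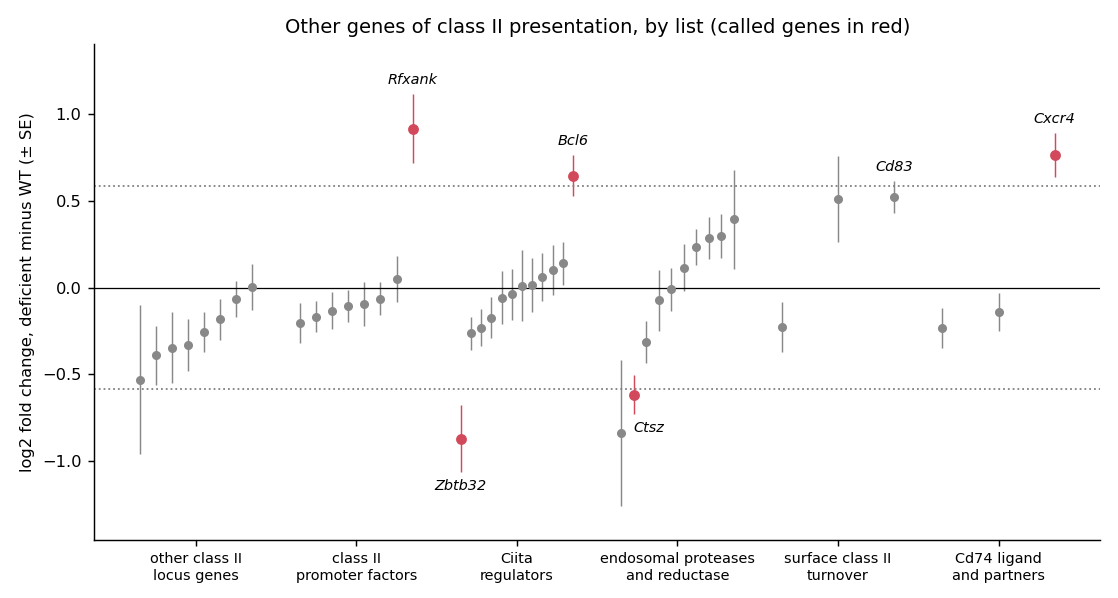
Log2 fold change (hnRNPL-deficient minus WT, with SE) of the other tested genes of class II presentation, grouped by list, with called genes in red and dotted lines at 1.5-fold; *H2-Ea-ps*, which separates library 1 from the others, is not drawn. *Rfxank*, *Bcl6* and *Cxcr4* are above and *Zbtb32* and *Ctsz* below the lines, and *Cd83*, at 0.52, lies just inside.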

How the data were processed

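RNA-seq of GFP+ activated splenic B cells from 3 WT and 3 hnRNPL-deficient mice was used, grouped by the submitters' labels. Per the labels and methods, the authors trimmed reads with fastp 0.23.1, aligned them to mm10 with STAR 2.7.9a, counted them per gene by strand with featureCounts, and divided the counts by DESeq2 1.38.2 size factors. The deposited values are these normalized counts, a signal, in 1 column per mouse. The authors' own comparison columns in the deposited table (log2 fold changes, a test score, p-values) were not used.

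Values were transformed as log2(normalized count + 1), and the 17640 genes whose mean reached 10 were tested by limma 3.58.1 with a mean-variance trend (R 4.3.3). The study's thresholds were used for calls, a Benjamini-Hochberg adjusted p below 0.1 with a fold of 1.5 or more. With 6 libraries, a p-value measures the spread between mice. Libraries held 40395186 to 75180749 reads on genes. Reads recovered from 5 libraries were also tested with edgeR 4.0.16 and DESeq2 1.42.0; those of hnRNPL-deficient library 2 could not be verified as whole and stayed out.

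Coordinates and exon lengths come from GENCODE vM21 (GRCm38), which held 17615 of the genes tested; the authors used another release. Named genes are the 10 genes, called genes of the pathway lists and the 3 most abundant uncalled genes of each list; others are marked. The genes and lists were chosen with earlier results of these data known. Scripts were tested on simulated data.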

Additional observations from a re-analysis of the deposited data

How the results depend on the processing

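Alternatives were pseudocounts of 0.5 and 5, no filter or a mean of at least 50, scaling to equal totals, quantile normalization, no variance trend, other thresholds, edgeR and DESeq2 on 5 libraries, each library left out, the replicate number as a block and, added after seeing the data, both number 1 libraries left out. None of the 10 genes was called under these except by DESeq2, which called 1 lower (*H2-Oa*). Leaving out single libraries gave 0 called, with log2 fold changes of -0.61 to 0.054 for *H2-Eb1*, -0.17 to 0.11 for *H2-DMb2*, -0.10 to 0.28 for *H2-Ob* and -0.20 to 0.057 for *Ciita*. Scaling to equal totals turned *H2-DMb2* to 0.046, *Ciita* to 0.024 and *Ctss* to 0.044. Quantile normalization turned *H2-DMb2* to 0.13, *Ciita* to 0.11, *Nfya* to 0.058, *Ifi30* to 0.051 and *Ctss* to 0.16. On 5 libraries, edgeR and DESeq2 gave 0.057 and 0.036 for *Ifi30*, 0.090 and 0.068 for *Ctss*, and -0.062 and -0.083 for *Brd2*, which was -0.071 without the number 1 libraries. Leaving out single libraries gave -0.12 to 0.067 for *Brd2*, -0.13 to 0.21 for *Pax5*, -0.23 to 0.083 for *Ifi30* and -0.098 to 0.084 for *Ctss*.

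The pathway lists had 2 to 3 genes called higher and 1 to 2 called lower with single libraries left out. They had 1 called lower with equal totals, quantile normalization, or no number 1 libraries, and 0 higher and 0 lower at an adjusted p under 0.05 with 2-fold. Over all genes that threshold called 610 higher and 216 lower, and single libraries left out gave 850 to 1124 higher and 483 to 695 lower, the lowest without WT library 3. The log2 ratio of *H2-Eb1* to *H2-Ab1* differed by -0.31 to 0.33 and that of *H2-DMb2* to *H2-DMb1* by -0.0084 to 0.35 with single libraries left out; without the number 1 libraries the first was -0.0073. The cause of these shifts was not tested.

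Replicate numbers were not taken as a pairing in the main test, and the labels give only the numbers. The deviations of same-numbered libraries correlated at 0.43, 0.32 and 0.07 for numbers 1, 2 and 3. Each library correlated best with the same number in the other group, except WT library 3, which correlated best with hnRNPL-deficient library 2. Those libraries were the ones from female mice, as read from *Xist* and the Y-linked *Ddx3y*. *Xist* had 98507 and 98219 normalized counts in them and at most 7.21 in the others. *Ddx3y* had 3.06 and 0, against at least 3752 in the others. The part of sex in these correlations and in the replicate block was not tested. With the replicate number as a block, calls rose from 1284 to 1755 higher and from 719 to 1018 lower, and 0 of the 10 genes passed both thresholds. In the pathway lists calls rose from 3 to 4 higher, by *H2-Ea-ps* (log2 fold change 1.42, adjusted p = 0.0416 from limma), and from 2 to 3 lower, by *Ctsh* (-0.84, adjusted p = 0.0957 from limma). In libraries 2 and 3, *H2-Ea-ps* had only 1.73 and 0.765 normalized counts in WT and 6.06 and 8.22 in hnRNPL-deficient cells. In library 1 it had 574 and 816. With the block, the adjusted p was 0.021 for *H2-Aa*, 0.0735 for *H2-Ab1* and 0.0741 for *H2-Oa* (limma). The ratios' smallest exact p was then 0.25, the least that 3 pairs allow.

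With 3 mice per group, the intervals of *H2-Eb1* and *H2-Oa* leave changes past 1.5-fold undecided. Depth bears on scarce genes such as *March8*, with 49.7 to 86.8 normalized counts per library.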
